A study of Mus musculus with 21 samples.

Results

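The G2 and mitosis genes examined were 40 listed genes whose products drive entry into mitosis, chromosome segregation and cell division. They were listed by name, with no rule on their values. The array had a probe set naming no other gene for 39 of them, and for 18193 genes in all. Ccnb1, which encodes cyclin B1, was not analysed here. Each gene was read from its probe set with the highest mean signal over 21 arrays. All 39 were among the 12168 genes tested, whose signal exceeded 80.6 in 3 or more arrays (80.6 is the middle value of the whole table). All 39 also passed without the bone marrow arrays, and 7 of them exceeded this signal in all 21 arrays.

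RNA was measured on Affymetrix arrays in 7 groups of sorted mouse cells with 3 arrays each, which the labels call biological replicates. All mice were female C57BL/6 animals of 7 to 8 weeks, and the labels used here do not give the number of mice behind an array. Inflammation was started by injecting zymosan, a preparation of yeast cell walls, into the peritoneal cavity. The injected mice gave Ly-6B+ Ly-6G- monocytes at 4 h, Ly-6G- monocyte/macrophages with positive or low Ly-6B at 18 h, and F4/80+ CD11b+ macrophages at 72 h. At 168 h they gave Ly-6B+ macrophages with medium to high F4/80 and Ly-6B- macrophages with high F4/80. Naive mice gave Ly-6B+ Ly-6G- monocytes from bone marrow and macrophages resident in the peritoneal cavity with high F4/80 and high CD11b. Each group was thus set by surface markers, and a group may hold cells in different states.

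Genes of G2 and mitosis are transcribed late in the cell cycle. In resting cells the DREAM complex keeps many of them silent, and in cycling cells the MuvB core joins B-Myb and then FoxM1 to switch them on. MuvB binds a short promoter element called the cell cycle genes homology region (CHR), which often lies downstream of CCAAT boxes bound by NF-Y. Monocytes are made by dividing precursors in bone marrow and divide little once they have left it, whereas resident peritoneal macrophages can renew themselves by dividing locally. The protein Ki-67, encoded by Mki67, and mitotic cyclins are widely used to mark dividing cells.

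The promoters of 34 of the 40 genes were found in the RefSeq table (GRCm38.p6), 2 of them with 2 promoters. Foxm1, Tpx2, Kif20a, Incenp, Aurkb and Ccna2 were not among them. A window of 250 bases before to 50 bases after the gene start was searched on both strands for the CHR, whose letters are TTTGAA in one form and, in the other form, TTCGAA, and for the letters of the CCAAT box. A CHR lay in 26 of the 34 genes (76.5%), against 21.7% of 27025 genes. CCAAT lay in 26 (76.5%), against 41.1% of all genes, and 23 held both (67.6%), against 8.61%. Within 40 bases before to 25 bases after the start, a window set with earlier results known, 19 genes (55.9%) held a CHR, against 4.34% of all genes. A match is only a description of these letters.

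The promoters of 6 cyclin, cyclin destruction and kinase genes are shown because both motifs stand within the 130 bases from 110 before to 20 after the start. Capitals mark the CHR and the CCAAT box. On the other strand the box reads ATTGG, and the first form of the CHR reads TTCAAA there. They lie at chr4:118437324-118437453 (minus strand) for Cdc20, chr9:70421535-70421664 (minus) for Ccnb2, chr10:69352893-69353022 (minus) for Cdk1 and chr2:164769819-164769948 (plus) for Ube2c. The Bub1 stretch is chr2:127831840-127831969 (minus) and that of Ttk is chr9:83834579-83834708 (plus). Each reads 5′ to 3′ along the gene.
Cdc20: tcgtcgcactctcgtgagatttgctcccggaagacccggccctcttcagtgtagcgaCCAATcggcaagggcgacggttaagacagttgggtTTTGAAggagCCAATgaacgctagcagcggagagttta
Ccnb2: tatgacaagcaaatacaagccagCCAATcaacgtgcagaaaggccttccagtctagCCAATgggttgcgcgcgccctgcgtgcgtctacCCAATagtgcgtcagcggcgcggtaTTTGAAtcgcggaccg
Cdk1: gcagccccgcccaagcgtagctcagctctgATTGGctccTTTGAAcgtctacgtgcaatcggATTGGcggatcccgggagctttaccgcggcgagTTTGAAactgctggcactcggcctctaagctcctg
Ube2c: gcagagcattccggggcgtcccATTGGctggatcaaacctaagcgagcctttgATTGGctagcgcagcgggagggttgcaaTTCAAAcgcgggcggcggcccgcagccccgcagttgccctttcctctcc
Bub1: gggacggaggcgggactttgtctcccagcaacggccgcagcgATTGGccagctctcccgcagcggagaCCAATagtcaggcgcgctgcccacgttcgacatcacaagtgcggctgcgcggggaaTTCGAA
Ttk: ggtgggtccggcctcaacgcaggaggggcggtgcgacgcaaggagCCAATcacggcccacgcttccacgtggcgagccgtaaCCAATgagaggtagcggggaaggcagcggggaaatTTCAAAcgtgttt
Cdk1 held 2 CHR matches, whose first bases lay 71 and 15 bases before the start, and CCAAT matches 80 and 48 bases before it. In Cdc20 the CHR began 18 bases before the start, with CCAAT 53 and 8 bases before it.

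Macrophage genes were present in every group: the summed signal of Csf1r, Adgre1, Itgam and Cd68 was 35946 to 40548 in bone marrow monocytes and 48646 to 93208 in the arrays of all other groups. Median signal per array ran from 67.3 to 93.0. Every marker of another cell type had some signal in every array, such as 1.37 for the erythroid gene Alas2 in Ly-6B- replicate 3. A signal above 0 does not by itself show that such cells were present. The second array of 72 h stood apart: B cell markers summed to 8284 there, against 708 and 817 in the other two, and eosinophil and mast cell markers to 4198, against 224 and 271. The main counts and medians that rest on this array are given with and without it. In bulk RNA of this kind, fewer cells of a type and less RNA per cell cannot be told apart.

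The 39 genes followed one another closely in level across the 7 groups. Taken as a percent of each gene's bone marrow mean, their median level was 1.34% at 4 h, then 2.33% at 18 h and 33.0% by 72 h. It was 18.4% for the Ly-6B+ cells sorted at 168 h, 9.49% for the Ly-6B- cells, and 11.3% for resident macrophages. Bone marrow was the highest group for 39 of 39 genes, 72 h was next for 38, and Ly-6B+ macrophages of 168 h were the third highest for 37. The order of 72 h and Ly-6B+ macrophages rested on 1 array: without replicate 2 of 72 h, the 72 h mean was above that of Ly-6B+ macrophages for 16 of 39 genes, their median ratio was 0.93 where it had been 1.72, and the median level at 72 h was 17.4% of bone marrow. The 4 h group was the lowest for 34 genes and the 18 h group for the other 5. Neighbours in this order were not all separated by their spread: resident macrophages had the higher mean for all but 3 genes (Aurka, Bub1 and Foxm1), and the arrays of resident and Ly-6B- macrophages overlapped for 39 of 39. The heat map of all members and arrays gives the log2 differences that underlie this order.

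**Figure D1:**
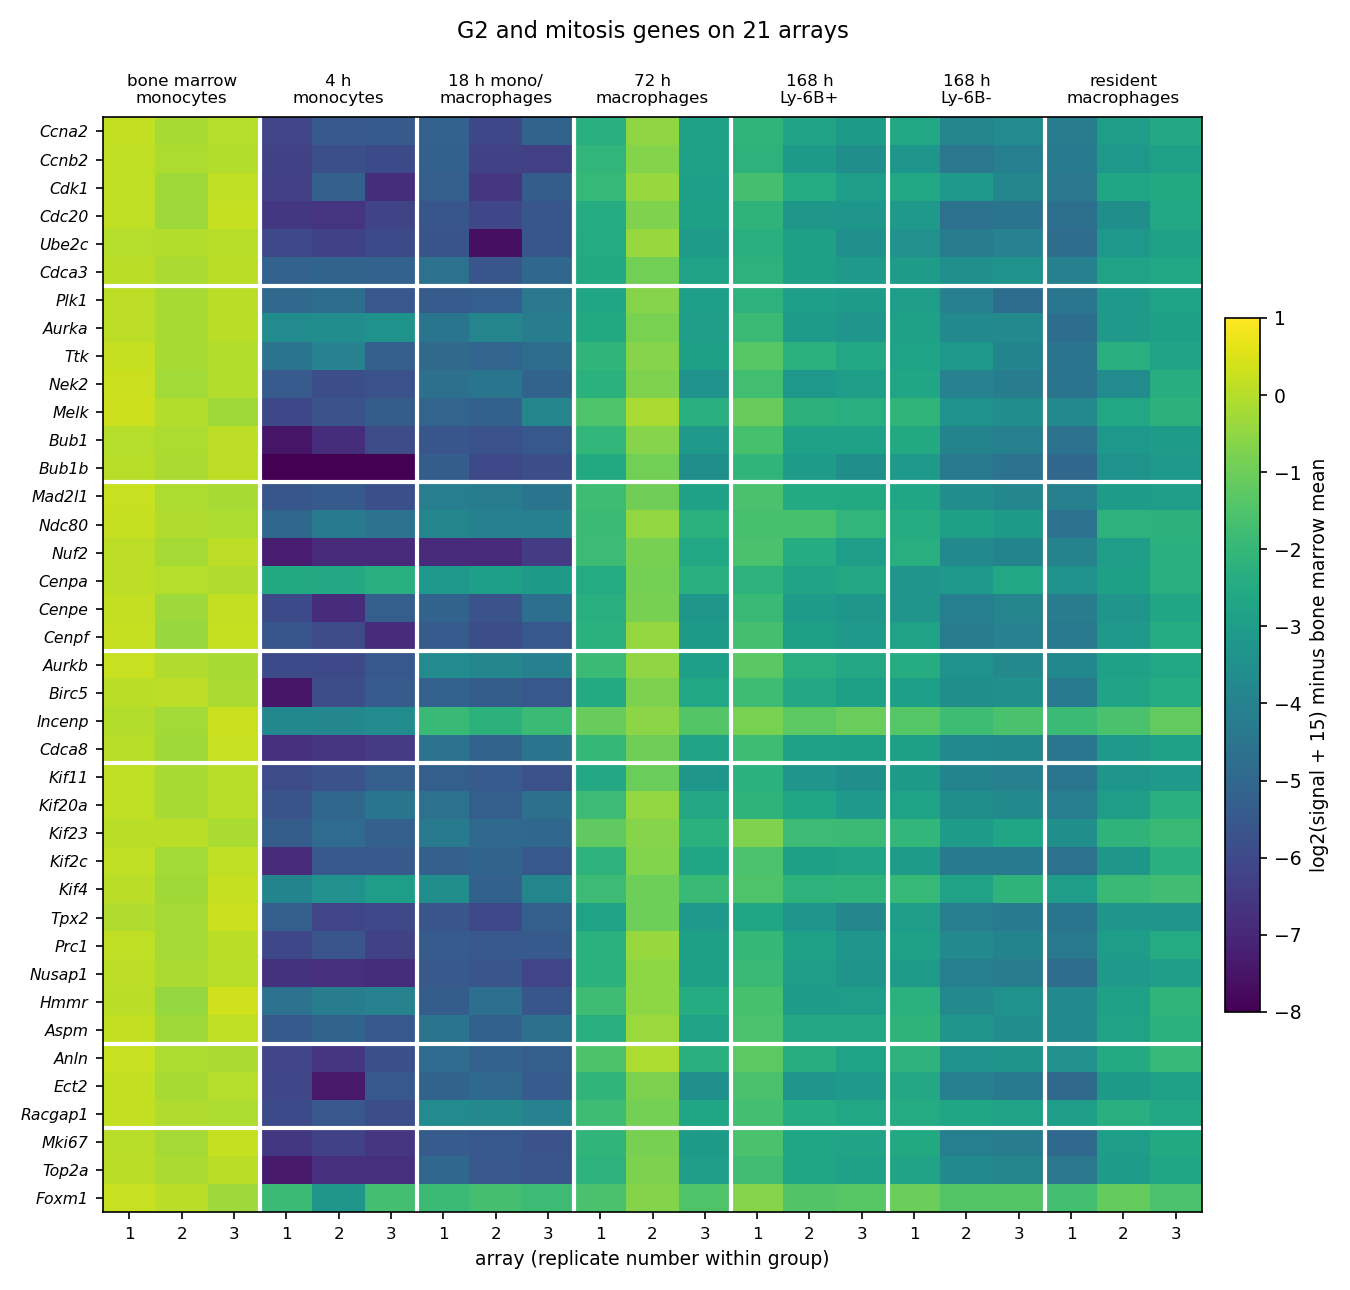
Heat map of log2(signal + 15) minus each gene's mean in bone marrow monocytes, for 39 G2 and mitosis genes grouped by role (rows) in 21 arrays (columns, 3 per group). The 4 h and 18 h columns are the lowest for nearly all genes, replicate 2 is the highest of the 3 columns of 72 h for 39 of 39 genes, and Foxm1 and Cenpa, each read from its probe set of highest mean, fall the least at 4 h.

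Monocytes sorted from the cavity at 4 h had far lower signals for these genes than bone marrow monocytes of naive mice. All 39 genes tested fell, where 14.5% of the genes tested fell, by limma with Benjamini-Hochberg adjustment at an adjusted p under 0.05 and a minimum log2 fold change of 1. The arrays of the groups did not overlap for any of the 39, a separation in this direction that 34.6% of all genes showed. Their median log2 fold change was -5.80, beside -0.14 over all genes, and ran from -8.14 for Bub1b to -2.28 for Foxm1. These changes are on the log2(signal + 15) scale, and 25 of the 39 genes had a mean at 4 h under the filter of 80.6, so that their sizes depend on the 15 added.

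Among cyclins and the machinery of their destruction, Cdc20, an activator of the anaphase-promoting complex (APC/C), had signals of 105, 98.4 and 140.0 at 4 h, against 12035, 8894 and 12652 in bone marrow (log2 fold change -6.43, SE 0.50, adjusted p = 1.58e-09). Ccnb2, a mitotic cyclin that activates Cdk1, had 71.5, 100.4 and 88.3 at 4 h, against 7096, 6027 and 6328 in bone marrow (log2 fold change -6.004, SE 0.46, adjusted p = 1.21e-09). Every 4 h array was far below every bone marrow array for both genes. Cdca3, whose product helps destroy the Cdk1 inhibitor Wee1, changed the least of this set: 73.0, 77.3 and 71.9 at 4 h and 3297, 2872 and 3299.8 in bone marrow (-5.15, SE 0.40, adjusted p = 1.39e-09). The set's levels at 4 h were 1.02% to 2.35% of bone marrow, including Cdk1 itself, Ccna2 and Ube2c.

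Of the mitotic kinases, the checkpoint protein Bub1b had 3.38, 5.96 and 6.26 at 4 h and 5793, 5172 and 6098 in bone marrow (log2 fold change -8.14, SE 0.52, adjusted p = 1.11e-10). Aurka, the kinase of the spindle poles, had 246, 259 and 299 at 4 h and 3499, 2904 and 3465 in bone marrow (-3.54, SE 0.48, adjusted p = 3.11e-06). Bub1b was thus at the bottom of the signal range at 4 h in this probe set, but its second probe set had 104, 77.7 and 75.7 at 4 h and a change of -4.88. Aurka kept 8.15% of its bone marrow level, the highest share of the 7 kinases. At the kinetochore, where chromosomes attach to spindle fibres, the checkpoint protein Mad2l1 had 135, 149 and 115 at 4 h and 8619, 6737 and 6435 in bone marrow (-5.62, SE 0.39, adjusted p = 2.72e-10). Nuf2, a microtubule-binding subunit of the outer kinetochore, had 1.81, 7.40 and 7.34 at 4 h and 2812, 2263 and 2837 in bone marrow (-7.02, SE 0.46, adjusted p = 1.41e-10). The exception at the kinetochore was Cenpa, the histone variant that marks centromeres, which had 978, 954 and 1159 at 4 h and 6233, 5715 and 5455 in bone marrow (-2.48, SE 0.31, adjusted p = 1.1e-06). Cenpa kept 17.8% of its bone marrow level, against 0.209% for Nuf2.

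The chromosomal passenger complex positions the kinase Aurkb on centromeres and later at the midzone. Its scaffold Incenp had 1161, 1140.0 and 1290.0 at 4 h and 15942, 13719.6 and 19826 in bone marrow (log2 fold change -3.75, SE 0.20, adjusted p = 6.24e-12). Its subunit Cdca8 (borealin) had 77.6, 87.8 and 101 at 4 h and 10111, 8223 and 11827 in bone marrow (-6.59, SE 0.41, adjusted p = 6.9e-11). Among spindle motors and microtubule proteins, Kif23, a motor of the midzone, had 120.2, 175 and 132 at 4 h and 5831, 5800.2 and 4965 in bone marrow (-5.15, SE 0.40, adjusted p = 1.65e-09). The microtubule bundler Nusap1 fell further: 47.3, 45.0 and 42.4 at 4 h and 6835, 5839 and 6616 in bone marrow (-6.75, SE 0.50, adjusted p = 7.94e-10). The chromosome-bound motor Kif4 changed the least of the 10 spindle genes, with 60.4, 90.7 and 128 at 4 h and 1178, 927 and 1313 in bone marrow (-3.45, SE 0.40, adjusted p = 3.92e-07).

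For cytokinesis, Anln, which anchors the contractile ring, had 39.1, 25.03 and 53.5 at 4 h and 4489, 3483 and 3466 in bone marrow (log2 fold change -6.17, SE 0.47, adjusted p = 9.92e-10). Ect2, the exchange factor that activates RhoA at the division plane, had 36.4, 5.68 and 59.6 at 4 h and 3942, 3047 and 3422 in bone marrow (-6.33, SE 0.63, adjusted p = 5.3e-08). Its partner Racgap1 had 33.0, 49.5 and 37.6 at 4 h and 3445, 2851 and 2791 in bone marrow (-5.79, SE 0.32, adjusted p = 1.03e-11). These 3 genes stood at 0.977% to 1.32% of bone marrow. Mki67, a coat protein of mitotic chromosomes, had 206, 256 and 199.8 at 4 h and 20868, 17555 and 23533 in bone marrow (-6.45, SE 0.54, adjusted p = 4.43e-09). Top2a, the topoisomerase that untangles sister chromatids, had 76.9, 121 and 126 at 4 h and 15742, 13771 and 15715 in bone marrow (-6.96, SE 0.46, adjusted p = 1.79e-10). Foxm1, the transcription factor of the G2 genes, had 219, 75.4 and 249 at 4 h and 998, 895 and 677 in bone marrow (-2.28, SE 0.32, adjusted p = 6.16e-06), and it was the least changed of all 39 as read from this probe set. Another of its probe sets above the filter had 9.15, 6.22 and 4.87 at 4 h, against 1151, 969 and 708 in bone marrow, a change of -5.44, while the remaining one above the filter had a change of -2.17.

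Markers of other cells differed in the same direction between these groups. The 8 progenitor genes summed to 1318 to 1641 at 4 h, against 33727 to 88533 in bone marrow, and 6 of 8 were called lower. The 7 neutrophil genes summed to 5020 to 5829 at 4 h and 57557 to 197153 in bone marrow, and 6 of 7 were called lower. Within bone marrow, the third array had the highest sums of both lists and the second array the lowest. The genes of mitosis had a median of 109%, 88.0% and 104% of their mean in arrays 1, 2 and 3. The part of these cells in the difference was not tested.

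By 18 h, 7 of the 39 genes had risen relative to 4 h (limma, adjusted), where 10.9% of all genes tested rose, and none fell. The median log2 fold change was 0.55, beside 0.14 over all genes, and 33 of 39 were above 0. The arrays of 18 h lay wholly above those of 4 h for 17 genes, and for 33.0% of all genes tested. They lay wholly below for Cenpa, Aurka and Hmmr, 3 of the 39, and for 2081 of the 12168 genes tested. Called genes were 3 of the 4 chromosomal passenger genes, 1 of 7 kinases, 1 of 6 kinetochore genes, 1 of 3 cytokinesis genes and 1 of 3 chromosome genes. The cyclin, cyclin destruction and spindle genes were not among them. Of the 39 genes, 17 had a mean at 18 h under the filter of 80.6. The split over all genes in this comparison also moved with the scaling of the arrays, as given in the last section.

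Bub1b had 123, 73.1 and 85.6 at 18 h, against 3.38, 5.96 and 6.26 at 4 h (log2 fold change 2.41, SE 0.52, adjusted p = 0.000873). Racgap1 had 224, 205 and 171 at 18 h and 33.0, 49.5 and 37.6 at 4 h (1.97, SE 0.32, adjusted p = 4.3e-05). Incenp had 4297, 3489 and 4474 at 18 h and 1161, 1140.0 and 1290.0 at 4 h (1.75, SE 0.20, adjusted p = 6.39e-07). These 3 genes did not overlap between the groups. The second probe set of Bub1b did overlap, with 69.3, 84.2 and 128 at 18 h and 104, 77.7 and 75.7 at 4 h (0.09, adjusted p = 0.906). The kinase Aurkb also rose (1.96, SE 0.46, adjusted p = 0.00166), as did Cdca8 (1.84, SE 0.41, adjusted p = 0.0011), Top2a (1.57, SE 0.46, adjusted p = 0.00961) and Mad2l1 (1.33, SE 0.39, adjusted p = 0.0088). The smallest changes were those of Plk1 (0.04, adjusted p = 0.964) and Cdca3 (0.09, adjusted p = 0.883). Hmmr and Kif4 had the lowest fitted values, -0.93 and -0.77, and neither passed the test. Read from the mean of each gene's probe sets, or from the probe set of second highest signal, 4 genes were called instead of 7. The shares of all genes called in these 2 readings are not given here, so the 4 cannot be set against a background. Aurkb and Cdca8 were called by all 3 readings, and Bub1b and Top2a only by the probe set of highest signal. Mad2l1 was also called by all 3, but it has only 1 probe set, so its signals were the same in each.

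At 72 h the macrophages of the cavity had far higher signals for these genes than the cells of 18 h. In all, 37 of 39 genes rose, where 9.04% of the genes tested rose (limma, adjusted). The arrays did not overlap for 39 of 39, and 22.8% of all genes showed this separation. The median log2 fold change was 3.32, beside 0.03 over all genes. Nuf2 had the largest change, with signals of 734, 1451 and 422 at 72 h and 6.74, 6.78 and 15.3 at 18 h (log2 fold change 5.01, SE 0.46, adjusted p = 4.83e-08), and Ube2c, the conjugating enzyme of the APC/C, followed (4.33, SE 0.58, adjusted p = 7.1e-06). Nuf2 was near the floor in every array of 18 h. The 2 genes not called were Foxm1, with 270.4, 524 and 295 at 72 h and 223, 258 and 225 at 18 h (0.54, SE 0.32, adjusted p = 0.235), and Incenp (0.98, SE 0.20, adjusted p = 0.000683), which passed the adjusted p but not the minimum fold. For Foxm1 this depended on the probe set: the changes of its other 2 probe sets above the filter were 1.69 and 3.03, the larger from signals of 123, 495 and 57.4 at 72 h and 7.32, 5.10 and 6.03 at 18 h.

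**Figure D2:**
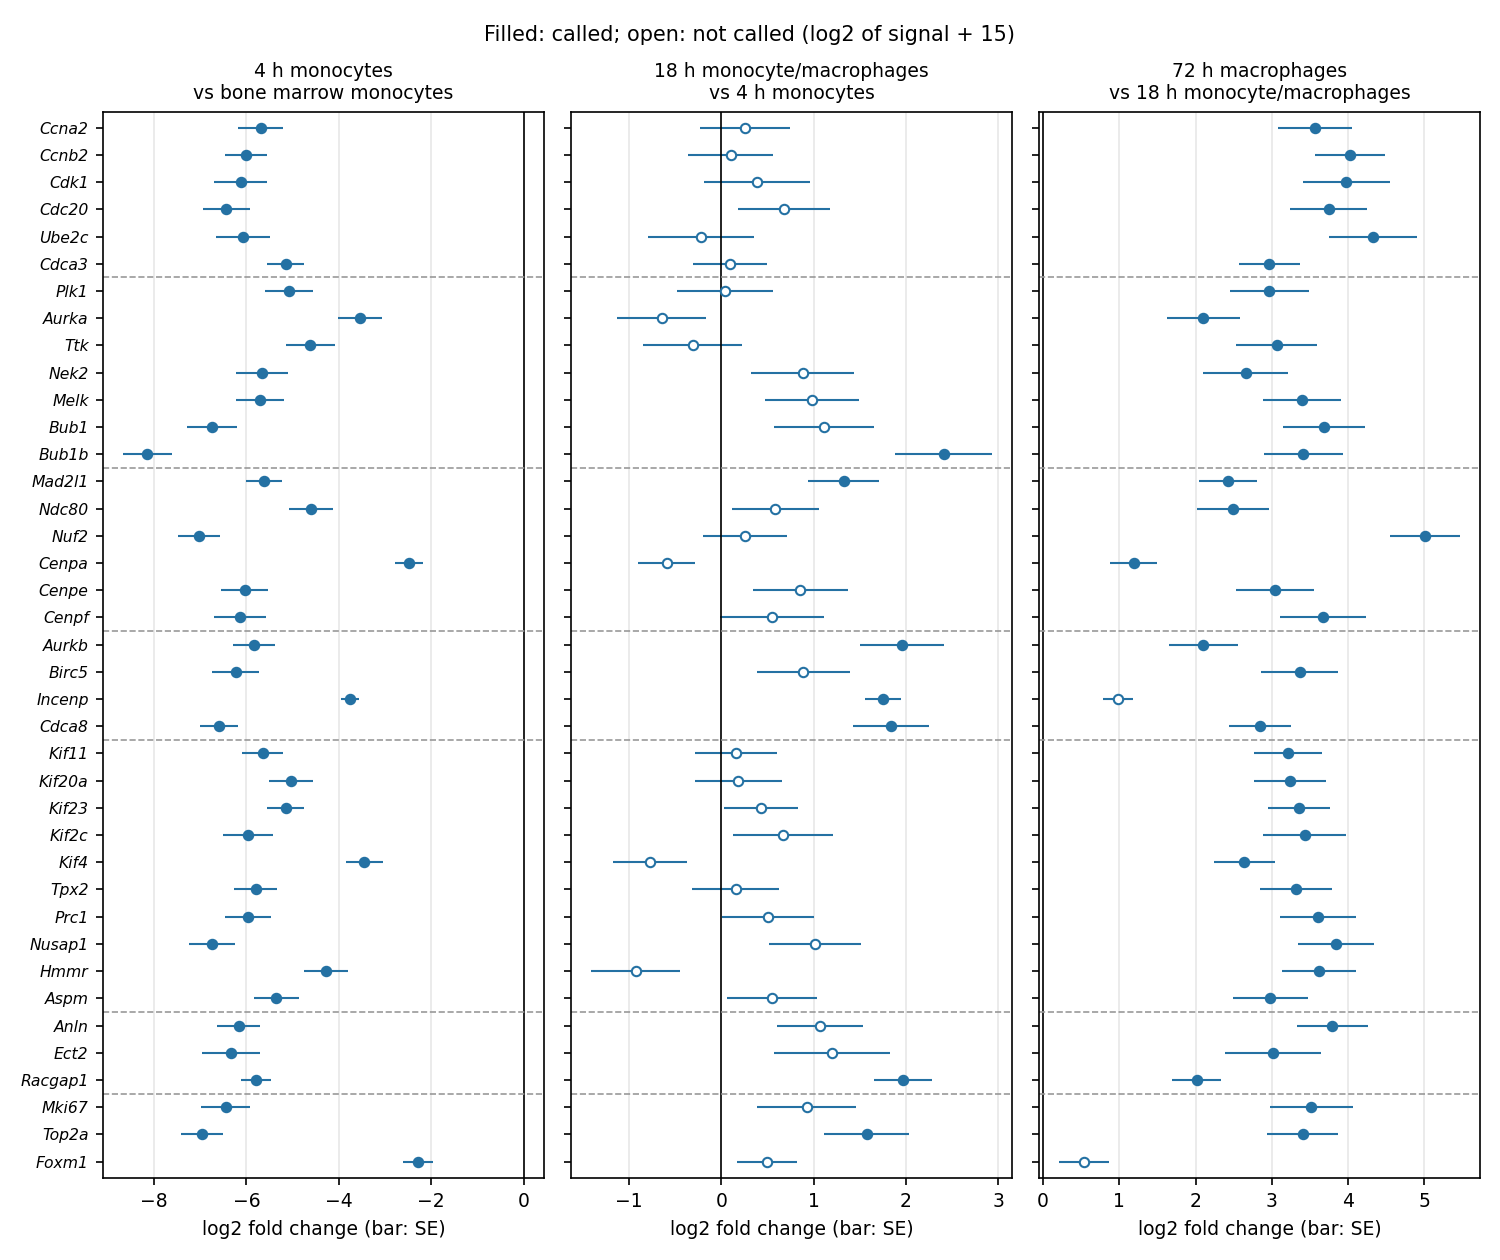
Log2 fold change of each gene (dot) with its standard error (bar) in 3 comparisons: 4 h against bone marrow monocytes, 18 h against 4 h, and 72 h against 18 h. Filled dots passed the test, 39, 7 and 37 of 39 genes, dashed lines part the roles, and each panel has its own axis.

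The cyclin and cyclin destruction genes rose in all 6 cases. Cdc20 had 2046, 6678 and 1497 at 72 h, against 215, 149 and 214 at 18 h (log2 fold change 3.75, SE 0.50, adjusted p = 7.15e-06). Ccnb2 had 1529, 4012 and 876 at 72 h, against 160.4, 72.6 and 67.9 at 18 h (4.03, SE 0.46, adjusted p = 1.03e-06). Cdca3 had 537, 1644 and 434 at 72 h, against 116, 49.8 and 86.2 at 18 h (2.97, SE 0.40, adjusted p = 7.32e-06). For all 3 genes replicate 2 of 72 h was the highest array, and every 72 h array was above every 18 h array. All 7 kinases rose as well. Bub1b had 966, 3035 and 484 at 72 h and 123, 73.1 and 85.6 at 18 h (3.42, SE 0.52, adjusted p = 3.56e-05), and Aurka had 557, 1883 and 412 at 72 h and 129, 207 and 168 at 18 h (2.10, SE 0.48, adjusted p = 0.00191). Aurka, the kinase that kept the largest share of its bone marrow level at 4 h, had the smallest rise of the 7.

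All 6 kinetochore and checkpoint genes rose. Mad2l1 had 2045, 3757 and 994 at 72 h, against 396, 385 and 292 at 18 h (log2 fold change 2.43, SE 0.39, adjusted p = 5.45e-05). Cenpa had 1031, 3154 and 1166 at 72 h, against 619, 745 and 669 at 18 h (1.19, SE 0.31, adjusted p = 0.00533). The Cenpa arrays of 72 h other than replicate 2 stood little above those of 18 h. Of the passenger complex, Cdca8 had 2465, 5163 and 1454 at 72 h and 403, 266 and 416 at 18 h (2.85, SE 0.41, adjusted p = 1.73e-05). Incenp had 7710.0, 11011 and 6131 at 72 h and 4297, 3489 and 4474 at 18 h. Each array of 72 h was above each of 18 h for both genes. All 10 spindle genes rose. Kif23 had 2425, 3519 and 1142 at 72 h and 272, 167 and 162 at 18 h (3.36, SE 0.40, adjusted p = 1.91e-06). Nusap1 had 1342, 4476 and 847 at 72 h and 129, 116 and 78.3 at 18 h (3.85, SE 0.50, adjusted p = 5.29e-06). Kif4, again the least changed of the spindle genes, had 304, 569 and 285 at 72 h and 82.0, 15.9 and 61.8 at 18 h (2.64, SE 0.40, adjusted p = 3.02e-05).

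All 3 cytokinesis genes rose. Anln had 1308, 3504 and 769.9 at 72 h, against 116, 91.2 and 82.7 at 18 h (log2 fold change 3.80, SE 0.47, adjusted p = 2.55e-06). Ect2 had 791, 1993 and 299 at 72 h, against 85.8, 98.6 and 69.2 at 18 h (3.01, SE 0.63, adjusted p = 0.000937). Racgap1, already higher at 18 h than at 4 h, had 848, 1627 and 443 at 72 h, against 224, 205 and 171 at 18 h (2.02, SE 0.32, adjusted p = 4.94e-05). Its rise was the smallest of the 3. Mki67 had 4757, 11519 and 2411 at 72 h, against 480.0, 434 and 382 at 18 h (3.52, SE 0.54, adjusted p = 3.66e-05), and Top2a had 3268, 8829 and 1887 at 72 h, against 455, 306 and 293 at 18 h (3.40, SE 0.46, adjusted p = 8.67e-06).

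The 3 arrays of 72 h differed from each other more than those of any other group. The highest over the lowest array had a median ratio of 4.68 there, against 1.30 in bone marrow and 3.24 in resident macrophages. Replicate 2 was the highest of the 3 for 39 of 39 genes and replicate 3 the lowest for 37, with median levels of 22.0%, 61.1% and 13.5% of bone marrow in replicates 1, 2 and 3. Without replicate 2, 36 genes were called higher than at 18 h, where 8.57% of all genes were, and the median log2 fold change was 2.65. Cenpa was then no longer called (0.69, adjusted p = 0.0409). The median ratio to the 18 h mean was 26.7 for replicate 2 alone and 7.71 for the mean of the other arrays.

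Replicate 2 of 72 h also exceeded replicates 1 and 3 in 7 of 7 eosinophil and mast cell genes, 5 of 7 B cell genes, 6 of 8 progenitor genes and 6 of 7 neutrophil genes. So it did in 4 of 4 T and NK cell, 5 of 6 mesothelial or fibroblast and 3 of 5 dendritic cell genes. No T and NK cell, mesothelial or fibroblast gene passed the filter. Only 1 of 7 resident macrophage and 1 of 6 erythroid genes were higher there. The median signal of replicate 2 was 88.9, against 74.4 and 85.7 in replicates 1 and 3, and the share of all genes highest in replicate 2 was not counted. Ms4a1, a B cell surface protein, had 267, 5384 and 289 in replicates 1, 2 and 3, and the mast cell protease Cpa3 had 140.0, 3408 and 131. The progenitor sums were 5419.9, 5524 and 8094, and the neutrophil sums 659.7, 2299 and 1307. Most of each progenitor sum was 1 gene, Prtn3 (5206, 4767 and 7838), which was not highest in replicate 2, whereas Kit had 7.00, 312 and 11.7. Genes of resident peritoneal macrophages also moved between the times, with 6 of 7 above every 18 h array in every array of 72 h and sums of 111917 to 143141 at 72 h and 35928 to 37959 at 18 h. The part of these cells in the result was not tested. Of the genes of mitosis, 39 of 39 genes stayed higher at 72 h than at 18 h without replicate 2.

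At 168 h, Ly-6B+ macrophages had higher signals than Ly-6B- macrophages for 39 of 39 genes, and the fit over all arrays called 0 of them, with 1.54% of all genes called higher. The limma p was under 0.05 before adjustment for 17 of the 39, and the share of all genes under it was not counted. The median log2 fold change was 0.99, beside -0.02 over all genes, and the arrays did not overlap for 9 genes, a separation that 11.3% of genes showed. The largest changes were those of Kif2c, a motor that shortens microtubules (1.48, SE 0.54, adjusted p = 0.11), and Mki67 (1.27, SE 0.54, adjusted p = 0.175), and the smallest those of Foxm1 (0.14, SE 0.32, adjusted p = 0.871) and Kif4 (0.36, SE 0.40, adjusted p = 0.68).

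Arrays with the same replicate number deviated together in these 2 groups. Fitted on the 6 arrays with the replicate block, 18 of 39 genes rose in Ly-6B+ macrophages, where 2.05% of all genes rose (limma, adjusted). Without the minimum fold, 34 had an adjusted p under 0.05 in this fit, and the share of all genes under it was not counted. The unpaired fit called 1 without Ly-6B- replicate 1. The adjusted p of the 18 ran from 0.000447 for Top2a to 0.0102 for Cenpe. Ly-6B+ macrophages were higher in 39, 38 and 38 of 39 genes for numbers 1, 2 and 3, and in all 3 pairs for 37 genes. The members moved together between the arrays of a group, so these counts are not independent. The share of all genes higher in all 3 pairs was not counted, and the labels do not say that equal numbers mark pairs. The median ratios were 1.99, 2.09 and 1.83. The genes called included Ttk, Cdc20, Plk1, Mad2l1, Melk and Bub1b among the regulators, and Kif23, Aurkb, Nusap1 and Ccnb2.

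**Figure D3:**
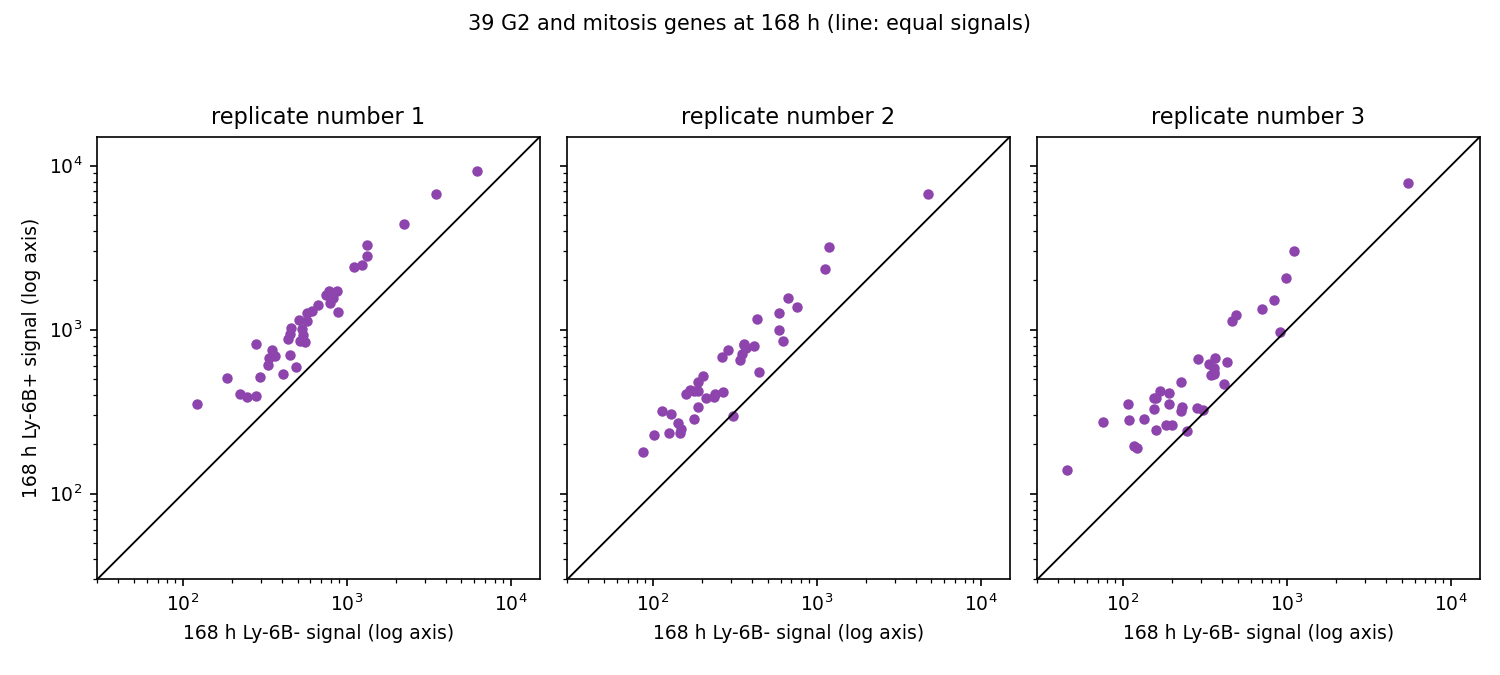
Signal of each gene (dot) in Ly-6B+ macrophages of 168 h (y axis) against Ly-6B- macrophages of the same replicate number (x axis), both on log scales, in 3 panels for numbers 1 to 3. The line marks equal signal, and 39, 38 and 38 of 39 dots lie above it.

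Kif2c had 813, 319 and 352 in Ly-6B+ macrophages, against 279.5, 114 and 107 in Ly-6B- macrophages. Mki67 had 6753, 3178 and 3019 in Ly-6B+ macrophages, against 3489, 1177 and 1099.7 in Ly-6B- macrophages. Replicate 1 was the highest of both groups for both genes, and each Ly-6B- array lay below the Ly-6B+ array of its number. Cdc20 had 2474, 1158 and 1125 in Ly-6B+ cells and 1228, 434 and 462 in Ly-6B- cells. Ccnb2 had 1407, 748 and 552 in Ly-6B+ cells and 663, 286 and 357 in Ly-6B- cells. Cdca3 had 691, 414 and 335 in Ly-6B+ cells and 363, 266 and 281 in Ly-6B- cells. For these 3 genes replicate 1 of Ly-6B- overlapped the Ly-6B+ arrays.

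Among the kinases, Bub1b had 1306, 682 and 479.6 in Ly-6B+ cells and 614, 262 and 226 in Ly-6B- cells. Aurka had 879, 388 and 321 in Ly-6B+ cells and 438, 235 and 226 in Ly-6B- cells, and both kinases overlapped. At the kinetochore, Mad2l1 had 2422, 1262 and 1235 in Ly-6B+ cells and 1112, 585 and 486 in Ly-6B- cells, with no overlap. Nuf2 had 855, 479 and 327 in Ly-6B+ cells and 516, 189 and 155 in Ly-6B- cells, and overlapped. Cenpa overlapped more, with 1264, 855 and 966 in Ly-6B+ cells and 572, 625 and 913 in Ly-6B- cells. Incenp had 9347, 6736 and 7817 in Ly-6B+ cells and 6228, 4742 and 5474 in Ly-6B- cells. Cdca8 had 2822, 1383 and 1336 in Ly-6B+ cells and 1321, 757 and 699.7 in Ly-6B- cells. Neither passenger gene overlapped, though the nearest arrays of Cdca8 almost met.

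Of the spindle and cytokinesis genes, Kif23 had 3300.4, 1557 and 1519.8 in Ly-6B+ cells and 1331, 670.3 and 833 in Ly-6B- cells, with no overlap. Nusap1 had 1712, 819 and 619 in Ly-6B+ cells and 778, 358 and 335 in Ly-6B- cells. Kif4 had 396, 234 and 242 in Ly-6B+ cells and 279.6, 146 and 245 in Ly-6B- cells, an overlapping range. Among cytokinesis genes, Anln had 1565, 709 and 540.2 in Ly-6B+ cells and 828, 348 and 361 in Ly-6B- cells. Ect2 had 1130.1, 339 and 383 in Ly-6B+ cells and 568, 187 and 159 in Ly-6B- cells. For both, Ly-6B- replicate 1 lay above Ly-6B+ replicates 2 and 3. Racgap1 had 934, 549.8 and 469.6 in Ly-6B+ cells and 539, 446 and 416 in Ly-6B- cells. Racgap1 differed least of the cytokinesis genes. Top2a had 4436, 2355 and 2066 in Ly-6B+ cells and 2237, 1127 and 991 in Ly-6B- cells. Foxm1 had 533, 298 and 326 in Ly-6B+ cells and 406, 309 and 307 in Ly-6B- cells, and its arrays overlapped. The 2 groups also differed in the classical monocyte genes Ccr2 and Chil3, whose sum was 18889 to 30130 in Ly-6B+ cells and 328 to 1830 in Ly-6B- cells, and in 3 of 7 B cell and 3 of 7 eosinophil and mast cell genes, which did not overlap and were higher in Ly-6B+. So were 2 of 7 neutrophil and 2 of 8 progenitor genes. Of the 7 genes of resident peritoneal macrophages, 4 were called lower in Ly-6B+ cells (median log2 fold change -1.24), with sums of 86259 to 102017 in Ly-6B+ and 148038 to 171334 in Ly-6B- cells. The part of such cells was not tested.

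Set against 72 h, the genes of Ly-6B+ macrophages of 168 h had a median log2 fold change of -0.57, and 0 of 39 were called by limma, with 1.87% of all genes called lower and 2 members under an unadjusted p of 0.05. Ccnb2 (-1.06, SE 0.46, adjusted p = 0.259) and Kif20a (-1.05, SE 0.47, adjusted p = 0.277) had the lowest values, and Incenp (-0.03) and Foxm1 (0.10) changed the least. Without replicate 2 of 72 h the median was 0.04. In Ly-6B- macrophages the median was -1.53 against 72 h, and 37 of 39 genes had an unadjusted p under 0.05. The share of all genes with such a p was counted for neither group. The adjusted test called 1 gene lower, Ccnb2 (-2.06, SE 0.46, adjusted p = 0.034), with 0.452% of all genes called lower. Cdc20 had the largest change (-2.10, SE 0.50, adjusted p = 0.0572), and Foxm1 (-0.04) and Incenp (-0.56) the smallest. The arrays did not overlap for 14 genes, and 5.75% of all genes were separated in this direction.

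The count for Ly-6B- macrophages depended on single arrays. Without replicate 2 of 72 h, 0 genes were called and the median was -0.88. Without replicate 3 of 72 h, which leaves replicate 2 with only 1 other array, 24 were called. Leaving out Ly-6B- replicate 1 called 4 genes, and leaving out Ly-6B- replicate 2 or 3 called 0. The shares of all genes called in these fits are not given here, so the counts show only how much the result moves with single arrays.

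Resident macrophages of naive mice had lower signals than bone marrow monocytes for all 39 genes. By limma, 39 of 39 fell, where 10.2% of all genes fell, with a median log2 fold change of -3.28 beside 0.05 over all genes. Bub1b (-3.83, SE 0.52, adjusted p = 3.82e-06) and Tpx2, a spindle assembly factor that activates Aurka (-3.69, SE 0.47, adjusted p = 1.72e-06), had the largest changes, and Foxm1 (-1.46, SE 0.32, adjusted p = 0.000825) and Incenp (-1.55, SE 0.20, adjusted p = 1.81e-06) the smallest. Resident replicate 1 was the lowest of its group for 39 of 39 genes, with median levels of 4.56%, 12.2% and 16.5% of bone marrow in replicates 1, 2 and 3. Markers of other cells differed in the same direction. Of the 8 progenitor genes 7 were called lower (median -4.34), with sums of 6207 to 9362 in resident macrophages and 33727 to 88533 in bone marrow. Of the 7 neutrophil genes 6 were called lower (-7.68), with sums of 672 to 948 in resident macrophages and 57557 to 197153 in bone marrow. Their part in the difference was not tested. In resident macrophages, Cdc20 had 416, 949 and 1765. Mki67 had 662, 2548 and 3536 there. Bub1b had 169.6, 515 and 639. Replicate 3 was the highest for these genes, as for 34 of the 39. Ccnb2 had 319, 682 and 887. Top2a had 677, 1776 and 2334. Kif23 had 468, 1239 and 1449. In these 3 genes, too, replicate 1 was far below the others. Incenp had 4453, 5385 and 7232, a narrower range.

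**Figure D4:**
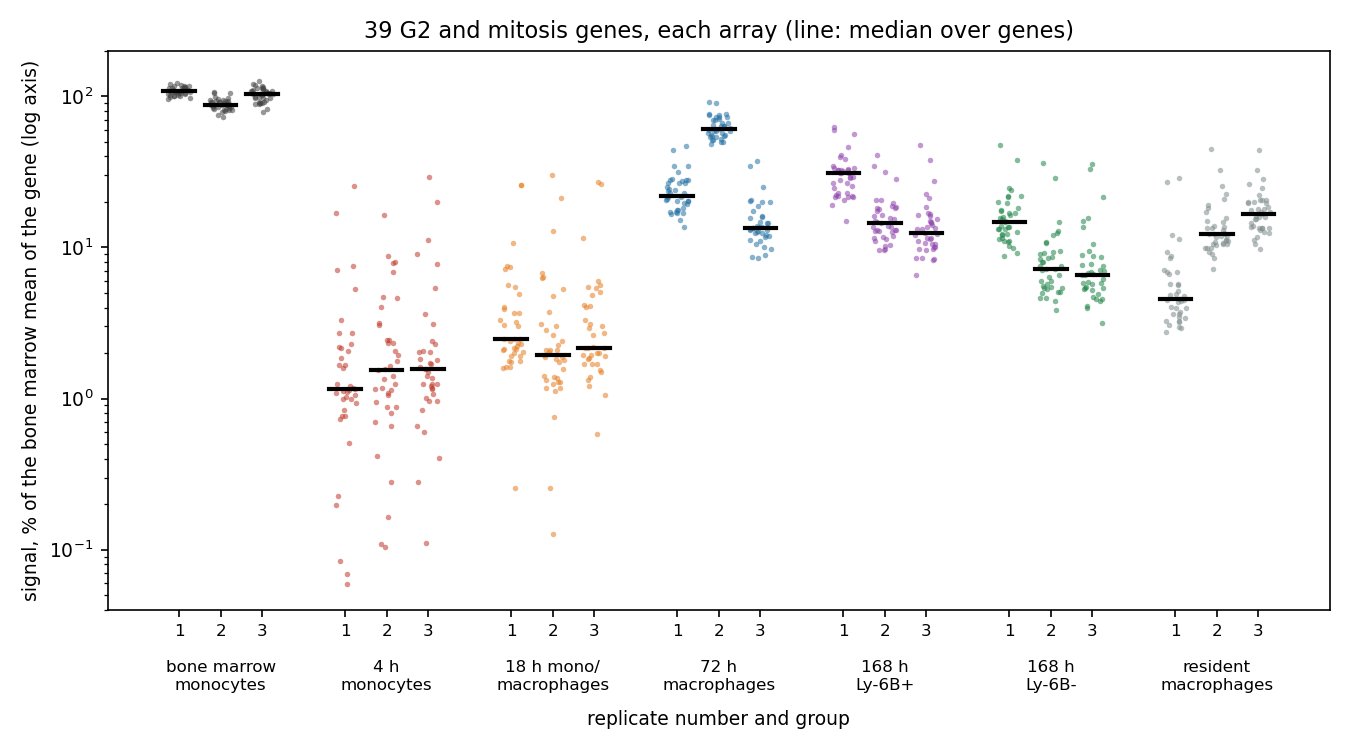
Signal of each gene (dot) as a percent of its mean in bone marrow monocytes (log axis), in each of 21 arrays, with the median of 39 genes as a line. The medians are 1.15% to 1.57% at 4 h, 1.95% to 2.47% at 18 h, 13.5% to 61.1% at 72 h and 4.56% to 16.5% in resident macrophages.

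Cells of the early inflamed cavity had lower signals than resident macrophages. At 4 h, 36 of 39 genes were lower than in resident macrophages (limma, adjusted), where 21.7% of all genes were called lower, with a median log2 fold change of -2.58 beside -0.22 over all genes. Bub1b (-4.31, SE 0.52, adjusted p = 5.28e-07) and Nuf2 (-3.95, SE 0.46, adjusted p = 2.85e-07) had the largest changes. The 3 genes not called were Foxm1 (-0.82, SE 0.32, adjusted p = 0.0372), Aurka (0.06, SE 0.48, adjusted p = 0.928) and Cenpa (0.38, SE 0.31, adjusted p = 0.318). At 18 h, 30 of 39 genes were lower, where 9.99% of all genes were called lower, with a median of -1.90 beside -0.08. Nuf2 (-3.69, SE 0.46, adjusted p = 2.04e-06) and Ube2c (-2.68, SE 0.58, adjusted p = 0.00101) led, and Cenpa (-0.22) and Foxm1 (-0.32) changed the least.

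At 72 h the signals were above those of resident macrophages for 39 of 39 genes, with a median log2 fold change of 1.40 beside -0.04 over all genes. The adjusted test called 0 of them, with 0.707% of all genes called higher, and the unadjusted limma p was under 0.05 for 37. The share of all genes under that unadjusted p was not counted. The members also moved together between the arrays of a group, so the 37 are not independent. The arrays did not overlap for 4 genes, Tpx2, Mad2l1, Cdca8 and Nusap1, and 6.31% of genes were so separated. Nusap1 (1.76, SE 0.50, adjusted p = 0.118) and Bub1 (1.69, SE 0.54, adjusted p = 0.189) had the largest changes, and Foxm1 (0.21) and Incenp (0.53) the smallest. Without replicate 2 of 72 h the median was 0.76, and the adjusted limma p ran from 0.453 for Mad2l1 and Cdca8 to 0.988 for Foxm1. Without replicate 3, 17 genes were called, a count whose share over all genes is not given here.

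At 168 h, 0 of 39 genes were called in Ly-6B+ macrophages against resident ones, with 1.98% of all genes called higher. An unadjusted limma p was under 0.05 for 10 members, and the share of all genes under it was not counted. The median log2 fold change was 0.74, from 1.22 for Ndc80 and 1.19 for Bub1 to 0.31 for Foxm1 and 0.27 for Kif4. In Ly-6B- macrophages the median was -0.12, 0 genes were called by limma, 0 had an unadjusted p under 0.05, and 0.0411% of all genes were called in either direction. The lowest values were -0.49 for Cdc20 and -0.49 for Ccnb2, each with an SE near 0.5, and the smallest were -0.01 for Racgap1 and -0.02 for Cdk1. These comparisons share the resident arrays and are not independent of each other.

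Within the set, a few genes followed the others less closely. Over the 21 arrays, the Pearson correlation of a gene with the mean of the other 38 was 0.77 for Cenpa, 0.87 for Foxm1, 0.89 for Aurka and 0.92 for Incenp, and 0.996 for Cdc20 and Prc1, a bundler of midzone microtubules. These correlations include the differences between groups. With group means removed the correlation was lowest for Foxm1 (0.50) and Cenpa (0.69). The 26 genes with a CHR had a median log2 fold change of -5.97 at 4 h against bone marrow, and the 7 measured genes without one had -6.04.

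Other genes of the cell cycle were read from lists, whose counts are all from limma with adjustment. At 4 h against bone marrow, 23 of 24 DNA replication genes fell (median log2 fold change -4.00), as did 38 of 40 further G2 and mitosis genes (-4.09), beside -0.14 over all genes, of which 14.5% fell and 7.5% rose. Rrm2, the ribonucleotide reductase subunit, fell by 6.81, and Ncapd2, a condensin subunit, by 6.57. Of 19 genes of the E2F, Rb and DREAM families 13 fell, led by the repressors E2f8 (-6.56) and E2f7 (-4.53). Of 14 APC/C genes 5 fell, led by its inhibitor Fbxo5 (-4.71). Of 10 G1 regulators 5 fell and 2 rose, with Ccne2 (cyclin E2) at -4.80 and Ccnd2 (cyclin D2) at 2.16. Of 6 CDK inhibitors Cdkn2c fell (-4.03) and Cdkn1a, which encodes p21, rose (1.44). Of 11 growth receptors and regulators of macrophages 4 rose and 0 fell.

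At 18 h against 4 h, 15 of 24 DNA replication genes rose (median log2 fold change 1.16), beside 7 of the 39 genes of G2 and mitosis (0.55) and 10.9% of all genes tested, of which 4.56% fell. Mcm2, a subunit of the replicative helicase, rose by 2.20 on the log2 scale. Of the further G2 and mitosis genes 7 of 40 rose and 1 fell (0.48), and 6 of 19 E2F, Rb and DREAM genes rose, Tfdp2 by 1.88. The CDK inhibitor Cdkn2d fell by 2.22 and Cdkn2b rose by 1.36. Ccnd1 rose by 1.04.

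At 72 h against 18 h, 18 of 24 DNA replication genes (median 1.56) and 30 of 40 further G2 and mitosis genes (2.07) rose and none fell, where 9.04% of all genes tested rose and 3.46% fell. Without replicate 2 of 72 h, 15 and 25 of them rose (medians 1.31 and 1.501), with 8.57% of all genes. Thymidine kinase, Tk1, rose by 3.87, and Ncapg, a condensin subunit, by 4.03, while Mcm2 had 0.06 (adjusted p = 0.878). Ccne2 rose by 2.88 and Ccnd1 by 1.53, and Ccnd2 fell by 1.46. Of the CDK inhibitors Cdkn2b (3.02), Cdkn2c (2.80) and Cdkn1c (2.29) rose and Cdkn1a fell by 1.29. E2f7 (3.15), E2f8 (3.09) and Tfdp2 (2.09) rose and E2f2 fell by 1.27. Of the APC/C genes Fbxo5 alone was called (2.73, and 2.07 without replicate 2). The calls of the genes named here were the same without replicate 2. Between the 168 h groups, Ccnd2 (1.44), Gtse1 (1.60) and Hmgb2 (1.21) were higher in Ly-6B+ macrophages, and Cdkn2b was lower (-2.64), where 1.54% of all genes were called higher and 2.41% lower. The median of the 24 DNA replication genes was 0.71, beside -0.02 over all genes.

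Regulators outside the set had other courses in mean signal over the groups. Cdkn1a averaged 4646 ± 659 in marrow monocytes, 12525 ± 552 at 4 h, 16173 ± 2115 at 18 h and 6603 ± 605 by 72 h (SD, n = 3 each). At 168 h it averaged 9361 ± 1688 in Ly-6B+ cells and 6614 ± 285 in Ly-6B- cells, and it had 6253 ± 1596 in resident cells. It was thus highest at 18 h, where the genes of mitosis were near their lowest. Myc averaged 447 ± 148 in marrow monocytes, 581 ± 113 at 4 h, 839.7 ± 135 at 18 h and 1675 ± 243 by 72 h, and did not exceed 2146 ± 518 in the other groups, its value in Ly-6B- macrophages. Csf1r, the receptor of the macrophage growth factor, ranged in mean only between 24498 in bone marrow and 31994 in resident macrophages. Mybl2, which encodes B-Myb, averaged 432 ± 46.9 in marrow monocytes, 73.6 ± 12.0 at 4 h and 156 ± 126 by 72 h, where its mean was 83.4 without replicate 2.

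Of tested genes outside the 39, those whose log2 signal followed the mean of the 39 most closely over 21 arrays were Pclaf (r = 0.995), Spc25 (0.992), Cep55 (0.992), Ncaph (0.991), Cdca5 (0.991) and Rrm2 (0.989). The lowest correlations were those of Ifitm2 (-0.930) and Ikbke (-0.912), which had their highest group means at 4 h. Ifitm2 averaged 19666 ± 3596 at 4 h and 5208 ± 1248 in bone marrow, and Ikbke 7083 ± 1483 at 4 h and 1856 ± 122 in bone marrow (SD, n = 3 each). These arrays share their groups, and the values describe likeness of pattern only.

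A second reading came from the other probe sets of these genes, of which there were 53 for 26 genes. Of the 42 above the filter, 42 were lower at 4 h than in bone marrow and 40 were higher at 72 h than at 18 h. The log2 changes at 4 h ran from -8.22 for 1 probe set of Cdca8 to -0.22 for 1 of Kif2c. Those at 72 h ran from -0.25 for 1 of Cenpa to 4.20 for 1 of Aspm. The bone marrow arrays alone can carry a probe set over the filter, which favours those lower at 4 h. The 72 h arrays can do so too, which favours those higher at 72 h, so neither count is a test. Of the probe sets under the filter, 1 each of Cenpa (0.39), Foxm1 (0.15), Top2a (0.13) and Incenp (0.05) was higher at 4 h on the log2 scale. The rest were lower. Over the 21 arrays, 21 of the 42 above the filter correlated above 0.9 with the probe set used. The 13 remaining genes have 1 probe set each.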

How the data were processed

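The authors deposited linear MAS5 values, a signal intensity per probe set, from Affymetrix Expression Console 1.2 per the submitters' processing notes, from 100 ng of RNA amplified in 2 cycles per the labels. The 2% trimmed mean was 500.0 in each array, so levels are relative to the array's total. Detection calls were not used here, and precision is limited by how many arrays there are. Of 45101 probe sets, 34945 had 1 gene symbol, 932 several and 9211 none listed, and 13 array controls were left out; 0 columns lacked a sample.

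Signals were taken as log2(signal + 15) and fitted over all 21 arrays (7 groups, 14 residual degrees of freedom) in R 4.3.3 with limma 3.58.1 (lmFit, eBayes with a trend), tested on simulated data. Tests were 2-sided in 12 comparisons, with Benjamini-Hochberg adjustment over the 12168 genes, and a call needed an adjusted p under 0.05 and a log2 fold change of 1 or more in size. The members, gene lists and tests were chosen with earlier results of these data known.

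Named genes were the 2 of highest mean in each role, the one that changed least at 4 h against bone marrow, the 2 most and the 2 least changed in each comparison, the called list members of largest change, the genes of most and least like pattern, and a set of regulators. Others (such as Kif2c in every array, Ndc80 and the paired calls) were named after their values were seen.

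Replicate numbers come from the labels. They were taken as pairs where the residuals of same-numbered arrays correlated above 0.1 for all 3 numbers, which held only for the groups of 168 h (0.296, 0.276 and 0.178); 6 of 6 arrays there correlated best with their own number. Alternatives were other pseudocounts (1 and 60), scalings, filters, probe set rules, the replicate block, array weights, eBayes with no trend, the 6 arrays alone, no minimum fold, and each replicate left out. Leaving out 3 arrays (bone marrow 3, 4 h 2, 72 h 2) or 2 arrays (72 h 2, resident 1) was added after seeing the data, as were the gene lists without 72 h 2.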

Additional observations from a re-analysis of the deposited data

How the results depend on the processing

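The counts of genes called in 4 h against bone marrow, 72 h against 18 h, resident against bone marrow, 4 h and 18 h against resident, Ly-6B+ against 72 h and Ly-6B- against resident stayed within 1.5 times the reported count under every alternative run. In 18 h against 4 h, 7 genes became 4 with the probe sets of a gene averaged and 4 with the second probe set. In Ly-6B- against 72 h, 1 became 2 with a common array median, 3 with the second probe set, 11 with array weights, and 0 with the mean of probe sets, without the trend, with the 6 arrays alone, with these and the replicate block, or with 2 or 3 arrays left out; leaving out one replicate gave 0 to 24. In Ly-6B+ against Ly-6B-, 0 became 1 with the second probe set, array weights, the replicate block over 21 arrays, the 6 arrays alone or 3 arrays left out, 12 with 2 arrays left out, and 18 with the 6 arrays and the replicate block; leaving out one replicate gave 0 to 1. In 72 h against resident, 0 became 1 with a common median or the replicate block and 2 with array weights; leaving out one replicate gave 0 to 17. In Ly-6B+ against resident, 0 became 1 with the mean of probe sets, array weights, the replicate block or 3 arrays left out. The replicate block changed no other of these counts by over 1.5 times. Read from the second probe set, Cdca3 (-0.23) and Cenpa (-0.25) reversed in 72 h against 18 h, and Cdca3 in 4 h against resident (0.41) and 18 h against resident (0.00299); the cause was not tested. Of 10272 values of single genes, 9773 kept direction and side of the threshold, 265 moved, 141 crossed into a call, 89 lost it and 4 reversed. Scaling moved the split over all genes: at 4 h against bone marrow 913 rose and 1766 fell as deposited, 1610 and 1116 with a common median, and 1122 and 1236 with quantiles, with the median of all genes at -0.14, 0.23 and 0.05 and of the members at -5.80, -5.44 and -5.51. At 18 h against 4 h the split was 1329 and 555, 737 and 999, and 828 and 690, and the members' median 0.55, 0.26 and 0.39 beside 0.14, -0.16 and -0.02. At 4 h against resident it was 1123 and 2636, 1981 and 1695, and 1533 and 1767. Without a minimum fold the calls over all genes rose more than 1.5 times, to 2002 and 3668 at 4 h against bone marrow, 3344 and 1527 at 18 h against 4 h, and 2125 and 1578 at 72 h against 18 h. Arrays near the floor at 4 h and 18 h limit the size of each change there.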
